A study of Mus musculus with 4 samples.

Results

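The 10 alveolar macrophage signature genes examined here were Siglecf, Itgax, Cd69, Chil3, Ear1, Ear2, Car4, Slc7a2, Krt79 and Perp, of 21755 protein-coding genes on the autosomes and the X chromosome. They were taken by gene symbol, and all 10 matched the gene annotation of the mm10 mouse genome. A peak was assigned to a gene when it lay in the gene body, within 1 kb of an annotated transcription start site (TSS), or had the gene's TSS as its nearest protein-coding TSS. By this rule 206 of 106228 RBPJ peaks of replicate 1 and 80 of 47224 peaks of replicate 2 belonged to the 10 genes. Overlapping peaks of both libraries merged into 48 consensus regions at these genes, of 25454 consensus regions in all. Every region of a locus is given below, numbered within its gene along the chromosome.

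Alveolar macrophages (AMs) are the resident macrophages of the airspace, where they clear surfactant, particles and microbes, and they depend on signals of the lung tissue around them. RBPJ is the DNA-binding protein at the end of the Notch pathway. When a Notch receptor is cleaved after ligand contact, its intracellular domain joins RBPJ on DNA and recruits coactivators, and without it RBPJ can hold corepressors. The 10 genes encode surface receptors, secreted proteins, enzymes and structural proteins by which AMs are commonly told apart from other macrophages.

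RBPJ was profiled by HT-ChIPmentation, a chromatin immunoprecipitation in which transposase adds the sequencing adapters on the beads, so that small numbers of sorted cells suffice. The 4 samples were 2 RBPJ libraries and 2 input libraries, all from sorted AMs obtained by bronchoalveolar lavage from WT C57BL/6J mice aged 9 wk with no treatment given in the labels. Each RBPJ library had its own peak list, and the inputs served as controls when the authors called peaks. It is not stated in the labels whether the replicates came from separate mice, and there was no second genotype or condition, so the values describe where RBPJ peaks lay in WT AMs and how far 2 libraries shared them.

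Sequence at the sites is shown first, because the loci differed in which motifs lay near their summits. RBPJ binds the core TGGGAA, which with a G before it reads GTGGGAA, and both were searched in either direction up to 100 bp from the summit, taken from whichever library had the higher fold. The core lay near the summit of 11 of 48 member regions (22.9%), against 18.8% of all 25454 consensus regions. Itgax, which encodes the integrin CD11c, held 4 of these 11. The 4 Itgax sites and the strongest sites of Car4, Ear2 and Slc7a2 with a core are given as 50 bases of GRCm38 from RefSeq around TGGGAA, on the strand that reads it, with the core in capitals.
Itgax site 2, chr7:128132909-128132958, plus strand: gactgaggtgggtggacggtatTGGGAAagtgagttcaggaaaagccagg
Itgax site 3, chr7:128133811-128133860, minus strand: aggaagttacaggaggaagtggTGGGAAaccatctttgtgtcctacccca
Itgax site 4, chr7:128138522-128138571, minus strand: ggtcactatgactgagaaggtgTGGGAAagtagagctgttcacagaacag
Itgax site 5, chr7:128139683-128139732, minus strand: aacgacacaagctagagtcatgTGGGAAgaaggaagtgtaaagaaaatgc
Car4 site 6, chr11:85003670-85003719, minus strand: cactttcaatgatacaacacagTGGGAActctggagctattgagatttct
Ear2 site 1, chr14:44103962-44104011, plus strand: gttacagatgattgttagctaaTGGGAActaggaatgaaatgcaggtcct
Slc7a2 site 4, chr8:40890317-40890366, minus strand: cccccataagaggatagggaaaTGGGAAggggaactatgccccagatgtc

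At Itgax sites 3, 4 and 5 and at Car4 site 6 the core was preceded by a G, making GTGGGAA. Ear2 site 1 and Slc7a2 site 4 had the core after an A. The distance of the core's centre from the summit was 5 bp at Itgax site 5 and 95 bp at Slc7a2 site 4, with the other printed cores between these. Of the 10 strongest sites, 4 had a core within the window and 6 had none, which says only that these letters were not found there. The share among the strongest sites of other genes was not computed.

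Longer windows are printed for 4 sites whose other motifs bear on the comparison of loci. They are 121 bases of GRCm38 centred on the summit, on the strand of the gene. Capitals mark matches to TGGGAA, the PU.1 and ETS letters GAGGAA, the AP-1 letters TGANTCA, the C/EBP letters TTGCNNAA, the nuclear receptor letters AGGTCA and the STAT letters TTCNNNGAA, or their reverse complements. The Siglecf window holds the TSS-proximal summit, the Chil3 window the strongest summit of all 10 loci, and the Car4 and Itgax windows several different motifs each.
Siglecf site 2, chr7:43351239-43351359, plus strand: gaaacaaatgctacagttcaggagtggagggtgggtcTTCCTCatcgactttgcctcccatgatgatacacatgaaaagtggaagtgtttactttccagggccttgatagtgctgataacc
Chil3 site 8, chr3:106170700-106170820, minus strand: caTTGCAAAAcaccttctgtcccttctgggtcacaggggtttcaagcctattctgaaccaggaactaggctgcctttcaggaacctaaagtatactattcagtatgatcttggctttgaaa
Car4 site 4, chr11:84979511-84979631, plus strand: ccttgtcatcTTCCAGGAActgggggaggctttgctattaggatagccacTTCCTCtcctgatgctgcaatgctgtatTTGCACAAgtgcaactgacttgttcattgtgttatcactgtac
Itgax site 4, chr7:128138502-128138622, plus strand: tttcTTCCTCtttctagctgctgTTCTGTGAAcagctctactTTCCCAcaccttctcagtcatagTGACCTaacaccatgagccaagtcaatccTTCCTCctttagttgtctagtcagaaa

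RBPJ regions were found at every one of the 10 genes and mostly away from the TSS. A consensus region overlapped the 1 kb either side of a TSS in 9 of 10 genes, against 33.7% of all protein-coding genes. Krt79 was the exception in the basic gene models used. All 10 genes had at least 1 consensus region by the full rule, against 45.0% of all protein-coding genes. The number of regions had a median of 4.5 per gene and ranged from 2 at Ear2 to 9 at Chil3, while genes with any region had a median of 2. Of the 48 regions, 25 lay in a gene body, 10 lay within 1 kb of a TSS, and 22 did neither and were assigned by nearest TSS alone.

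The summits lay farther from TSSs than those of consensus regions in general. At 5 of the 48 member regions (10.4%) the summit itself was within 1 kb of a TSS, against 30.8% of all 25454 regions. The median distance from summit to TSS was 9230 bp for member regions and 5710 bp for all regions. In place, 18 member summits were in introns, 2 in coding exons, 18 downstream of the gene and 10 upstream. The regions nearest to the edge of the promoter window were Siglecf site 3 at 996 bp and Car4 site 1 at 923 bp on the inside, and Cd69 site 6 at 1132 bp and Siglecf site 1 at 1380 bp on the outside. No strongest region of the 10 genes had its summit within 1 kb of a TSS, although 4 of these regions reached into that window. Among the 9800 genes with a region, 54% had their strongest summit within 1 kb of a TSS, and among the 5428 genes with at least 2 regions, 43.6% did. This count was made after the sites had been seen, and no test was run on it.

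**Figure D1:**
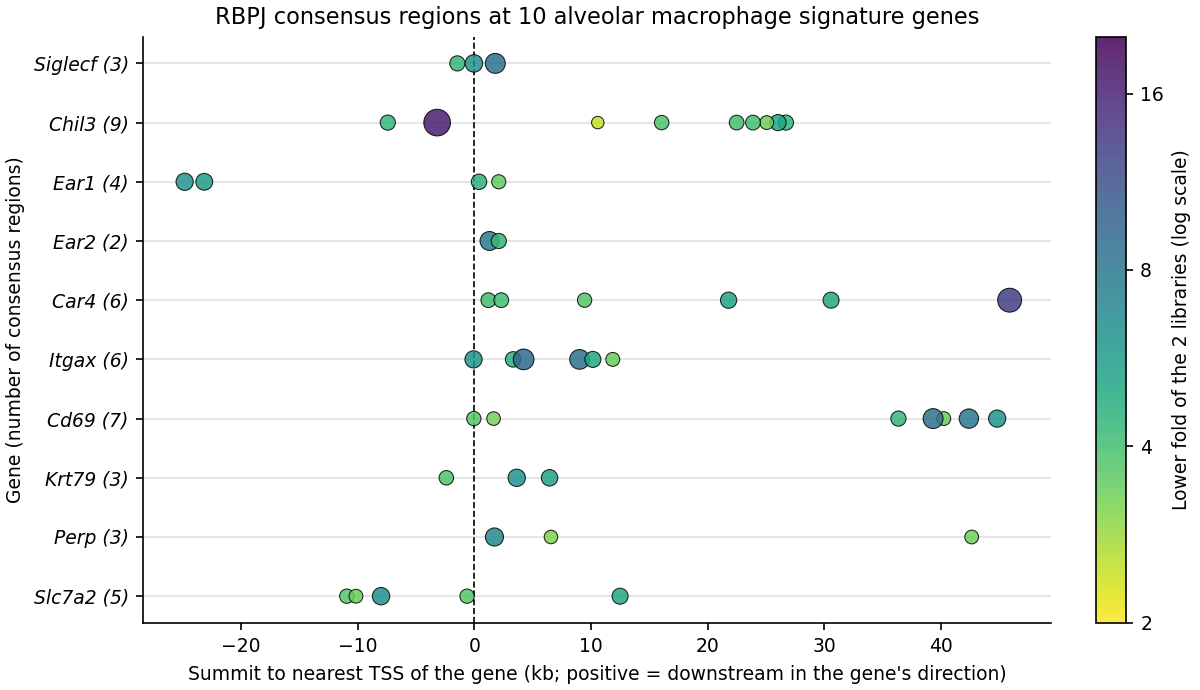
Each point is 1 of the 48 consensus regions, placed by the distance of its summit from the nearest TSS of its gene in kb, with positive values downstream in the direction of transcription. Size and colour give the lower fold of the 2 libraries. The strongest regions of Chil3 at -3196 bp, Car4 at 45869 bp and Itgax at 4216 bp all lie away from the dashed TSS line, and 5 Cd69 regions lie between 36340 and 44802 bp.

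The strength of a region was taken as the lower of its 2 folds, where fold is the peak caller's enrichment of the summit over background within a library. Member regions had a median lower fold of 4.46, against 4.69 over all regions, so a typical region of these loci was no higher than others. The strongest region of each gene had a median lower fold of 8.09, with a range of 6.025 at Ear1 to 16.63 at Chil3, against 5.84 over all genes with a region. Genes with more regions have more chances of a high one. In 5 of the 10 genes, namely Siglecf, Chil3, Car4, Itgax and Cd69, a region exceeded 7.7, the 90th percentile of all regions, against 9.85% of all protein-coding genes. These 5 genes held 7 such regions, or 14.6% of the 48.

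Both libraries ordered the member regions alike only in part. Fold was higher in replicate 1 at 29 member regions (60.4%) and in replicate 2 at 19, while over all regions it was higher in replicate 1 at 72.2%. Across the 48 regions, Spearman's rho between the libraries was 0.611 and Pearson's r of log2 fold was 0.675, and Spearman's rho over all regions was 0.552. These are descriptions across regions, which share libraries and loci. Some sites had the same fold, mainly in replicate 2. The 48 regions had 41 distinct folds in replicate 1, where the commonest value occurred at 3 regions. In replicate 2 they had 28, and 6 regions had the same fold of 5.02. Sites of equal fold are therefore not ranked within a library, and small differences in fold rest on 2 libraries only.

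**Figure D2:**
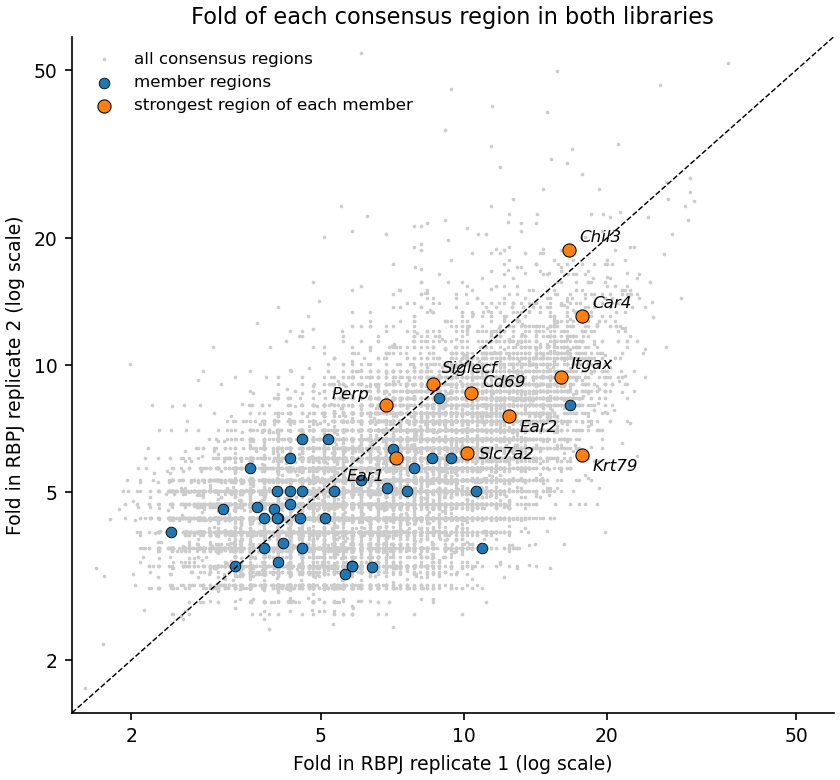
Fold in replicate 1 (horizontal, log scale) and in replicate 2 (vertical, log scale) for all 25454 consensus regions in grey, the member regions in blue and the strongest region of each gene in orange. The dashed line marks equal fold. Chil3 at 16.63 and 18.7 lies close to the line, and Krt79 at 17.76 and 6.13 lies far to the right of it.

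The surface receptors come first, and wherever a pair of folds is given for a site, replicate 1 precedes replicate 2. Siglecf encodes a sialic acid-binding inhibitory lectin that AMs share with eosinophils, and its gene lies at chr7:43351341-43359531 on the plus strand. It had 3 regions, all around the start of the gene. Site 3, in intron 4 at 1788 bp downstream of the nearest TSS, reached 8.63-fold in replicate 1 and 9.04-fold in replicate 2. Site 2, whose summit lay 42 bp upstream of a TSS and whose sequence is printed above, had folds of 7.10 and 6.33 in replicates 1 and 2. Site 1, at 1466 bp upstream, had 4.31 and 5.02. The TSS-proximal site was thus not the strongest of this gene, but the difference between sites 2 and 3 rests on 1 pair of values in each library. The window of site 2 held a PU.1 and ETS match 20 bp from the summit, and that of site 3 held none of the motifs searched. Siglecf site 1 lay in sequence that is 95.5% repeat within its window.

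Itgax, at chr7:128129547-128150657 on the plus strand, encodes the alpha chain of the integrin CD11c, an adhesion and complement receptor. All 6 of its regions overlapped the gene body. The strongest, site 3, had its summit in coding exon 8 at 4216 bp, with folds of 15.98 (replicate 1) and 9.37 (replicate 2). Site 4 in intron 14 had 8.88 and 8.37, and site 5 in the same intron, 10152 bp from the TSS, had 7.61 and 5.02. Both libraries placed sites 3 and 4 above sites 2, 5 and 6. Site 1 spanned 3761 bp over the TSS, with a summit at 78 bp upstream and folds of 9.39 and 6.03. Site 2 in intron 5 had 4.57 and 6.69, and site 6 in intron 18 had 4.06 and 3.42. Site 1 also fell to the protein-coding gene Gm49368, whose body overlaps it, so its peak cannot be given to Itgax alone.

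The motifs of the Itgax sites differed along the gene. Sites 2, 3, 4 and 5 each had the RBPJ core, and sites 3, 4 and 5 had GTGGGAA, as printed above. Site 3 also held 2 PU.1 and ETS matches and the C/EBP match TTATGCAA at 39 bp from the summit. Site 4 held the core at 15 bp, a STAT match, a nuclear receptor match and 2 PU.1 and ETS matches in the same window. Site 1 at the TSS had no core and held the AP-1 match TGAGTCA. No other member had more than 3 regions with a core.

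Cd69, at chr6:129267325-129275436 on the minus strand, encodes a C-type lectin known as an early activation marker of lymphocytes. Its promoter was among the weaker sites. Site 7, 52 bp upstream of a TSS, had folds of 4.57 (replicate 1) and 3.68 (replicate 2), and site 6 in intron 1 had 5.63 and 3.20. The stronger sites formed a group downstream of the gene. Site 4 at 39307 bp had 10.38 and 8.58, and site 2 at 42375 bp had 16.75 and 8.03. Site 1 at 44802 bp had 8.56 and 6.03, site 5 at 36340 bp had 4.53 and 4.35, and site 3 at 40222 bp had 5.84 and 3.35. Sites 2 and 4 were broad, at 3653 and 3048 bp. Sites 1 to 4 lay over the noncoding gene 2310001H17Rik and site 5 over the noncoding gene Gm47861, so these regions were given to Cd69 only because its TSS was the nearest of a protein-coding gene. Fold was higher in replicate 1 at all 7 Cd69 regions.

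Among the secreted proteins, Chil3 encodes a chitinase-like lectin, also called Ym1, that binds chitin without cleaving it. The gene lies at chr3:106147554-106167564 on the minus strand. Site 8, with a summit 3196 bp upstream of the TSS, had folds of 16.63 (replicate 1) and 18.7 (replicate 2), the highest lower fold of the 48 member regions and higher than that of 99.9% of all consensus regions. It was also the broadest member region, at 6218 bp, and reached over the TSS. Replicate 1 had 1 peak there and replicate 2 had 6. In replicate 2 the peak at 137 bp upstream of the TSS had a fold of 7.36, the peak at 724 bp upstream had 4.69 and the peak at 648 bp downstream had 4.69. The promoter of Chil3 thus counted as bound through the flank of a region centred upstream, and in replicate 2 also through peaks of its own. The window of site 8 held a C/EBP match, TTTTGCAA on the plus strand, 55 bp from the summit and no RBPJ core.

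The other 8 Chil3 regions were weaker and mostly in repeats. Sites 1 to 5 lay between 22472 and 26696 bp downstream of the TSS, beyond the end of the gene. Site 1 had folds of 4.31 and 4.69 in replicates 1 and 2, site 2 had 6.89 and 5.13, and site 3 had 6.41 and 3.33. Site 4 had 4.06 and 4.35, and site 5 had 3.99 and 4.55. Sites 1 and 2 touched without overlapping, so they would count as 1 region under a rule that joins adjacent peaks. In the gene, site 6 in intron 6 had 4.17 and 3.78, and site 7 in intron 5 had 2.42 and 4.02, the lowest lower fold of the 48. Site 9, at 7426 bp upstream, had 5.10 and 4.35. The windows of sites 1 to 5 and of site 9 were between 85.1% and 100% repeat sequence. These were 6 of the 9 member windows that were more than 50% repeat, a class that made up 18.8% of member windows and 6.22% of all windows. At site 2, 83.5% of 100-base windows occurred once in the genome.

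Ear1 and Ear2 encode eosinophil-associated ribonucleases of the RNase A family, which form a cluster of near-identical genes in the mouse. Ear1 lies at chr14:43818765-43875517 on the minus strand, with 2 annotated TSSs, and Ear2 at chr14:44102654-44103534 on the plus strand. Ear1 site 3, in intron 1 of the long transcript and 24835 bp upstream of the nearest TSS, had folds of 7.21 and 6.03 in replicates 1 and 2, and site 4, at 23157 bp upstream of the nearest TSS, had 7.87 and 5.69. Ear1 site 2 in coding exon 2, 394 bp downstream of the TSS, had 4.57 and 5.02. Site 1, 2084 bp downstream, had 3.55 and 5.69. All 4 Ear1 regions also lay over the noncoding gene AC154806.1. Ear2 site 1 spanned 1880 bp from the TSS to beyond the gene end, with its summit at 1290 bp, and had 12.43 and 7.59. Ear2 site 2 at 2089 bp had 4.31 and 6.03.

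Some pairs of regions in the Ear cluster were near copies of one another over the aligned sequence. Ear1 site 1 aligned with Ear2 site 2 at 95.2% identity over 289 alignment columns, and Ear1 site 2 aligned with part of Ear2 site 1 at 95.5% over 177. Ear1 sites 3 and 4 aligned with each other at 95.2% over 518 columns. Other pairs were less alike, with 60.4% over 230 columns for Ear1 sites 1 and 3, and 74.8% over 103 for Ear1 site 3 and Ear2 site 1. The highest replicate 1 peak at Ear2 without a partner in replicate 2, at 24875 bp upstream, aligned with Ear1 site 3 at 93.5% over 413 columns. Both had a replicate 1 fold of 7.21. Equal folds also occurred at sites on different chromosomes, such as 17.76 in replicate 1 at Car4 site 6 and Krt79 site 2. The summit windows of 2 of these pairs are printed on the strand of each gene, 121 bases each of GRCm38, with the longest run shared within a pair in capitals.
Ear1 site 1, chr14:43817495-43817615, minus strand: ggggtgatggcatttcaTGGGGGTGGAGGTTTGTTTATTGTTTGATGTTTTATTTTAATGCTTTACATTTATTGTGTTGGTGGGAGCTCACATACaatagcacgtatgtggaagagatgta
Ear2 site 2, chr14:44104683-44104803, plus strand: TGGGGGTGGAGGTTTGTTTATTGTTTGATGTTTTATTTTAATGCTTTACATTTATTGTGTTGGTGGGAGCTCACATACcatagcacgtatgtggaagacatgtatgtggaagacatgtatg
Ear1 site 3, chr14:43844414-43844534, minus strand: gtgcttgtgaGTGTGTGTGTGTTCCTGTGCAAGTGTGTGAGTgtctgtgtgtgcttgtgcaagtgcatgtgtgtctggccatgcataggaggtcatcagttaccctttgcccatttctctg
Ear2 peak of replicate 1, chr14:44077719-44077839, plus strand: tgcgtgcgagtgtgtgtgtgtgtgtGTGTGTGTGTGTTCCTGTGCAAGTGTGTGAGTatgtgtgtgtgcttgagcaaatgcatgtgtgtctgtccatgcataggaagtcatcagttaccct

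The shared run was 78 bases in the first pair and 32 in the second, where it lay in a GT repeat. In the body of Ear1, 55.5% of 100-base windows and 30.8% of 50-base windows occurred once in the genome, and in Ear2 74.7% and 53.6% did. The other 8 genes had at least 97.7% of 100-base windows occurring once. Of the regions, Ear1 site 4 had 76.1% and Ear2 site 1 had 83.0% of 100-base windows occurring once. Reads from such stretches cannot always be placed, and the study's methods describe a filter on alignment quality. The signal at Ear1 and Ear2 in these stretches is therefore uncertain, and the effect on the folds was not tested.

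Car4, at chr11:84957786-84966044 on the plus strand, encodes a membrane-anchored carbonic anhydrase, which interconverts carbon dioxide and bicarbonate. Its strongest site was its most distant one. Site 1 at 1192 bp and site 2 at 2300 bp, both in intron 1, each had a fold of 4.05 in replicate 1, with 5.02 and 4.35 in replicate 2. Site 3 at 9442 bp, beyond the gene end, had 3.81 and 3.68. Site 4 at 21783 bp had 5.19 and 6.69, and its window held PU.1 and ETS, C/EBP, nuclear receptor and STAT matches but no RBPJ core. Site 5 at 30564 bp had 10.59 and 5.02. Site 6 at 45869 bp had 17.76 and 13.05, higher in lower fold than 99.3% of all regions, with the RBPJ sequence printed above. Sites 5 and 6 lay inside the neighbouring gene Usp32, a ubiquitin protease, so they were assigned to both genes.

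Slc7a2, at chr8:40862396-40922308 on the plus strand, encodes a transporter of arginine and other cationic amino acids and has 4 annotated TSSs. Site 4, in intron 1 of the longest gene model and 8001 bp upstream of the nearest internal TSS, had folds of 10.15 (replicate 1) and 6.21 (replicate 2). The region closest to a TSS, site 2 at 634 bp upstream, had 10.91 and 3.68. The libraries differed most on site 2, which replicate 1 placed first among the 5 sites and replicate 2 near the bottom. Site 5 in intron 6 had 5.33 and 5.02, site 3 in intron 1 had 5.84 and 3.35, and site 1 at 10941 bp upstream had 3.68 and 4.62. The core lay in the windows of sites 1, 4 and 5. At site 1 it was part of TTCTGGGAA, which also matches the STAT letters, so the same bases count under both motifs, as they do at Ear1 site 2.

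Krt79 and Perp encode proteins better known from epithelia, a type II keratin and a tetraspan membrane protein of desmosomes and p53-dependent cell death. Krt79, at chr15:101929332-101940324 on the minus strand, was the member without a region within 1 kb of its TSS in the basic gene models. With the comprehensive set of transcripts it had such a region. Site 2 in intron 2 had folds of 17.76 (replicate 1) and 6.13 (replicate 2), over 2018 bp with 3 and 2 peaks. Site 1 in intron 4 had 6.09 and 5.36, and site 3 at 2409 bp upstream had 3.81 and 4.35. Site 3, the weakest, was the only one with an RBPJ core, 21 bp from its summit. Perp, at chr10:18845020-18857073 on the plus strand, had its strongest region, site 1, in intron 1 at 1715 bp, with 6.85 and 8.03 over 2495 bp. Site 2 in the same intron had 3.12 and 4.55, and site 3 at 42618 bp had 3.30 and 3.35. None of the 3 Perp windows held any of the 10 motifs.

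A large share of the peaks at these loci was seen in 1 library only. Of the 206 member peaks of replicate 1, 55 overlapped a peak of replicate 2 (26.7%, Wilson 95% interval 21.1 to 33.1), against 26% of all replicate 1 peaks. Of the 80 member peaks of replicate 2, 63 overlapped a peak of replicate 1 (78.8%, 68.6 to 86.3), against 66.3% of all replicate 2 peaks. The intervals cover counting error over peaks, and peaks of a locus are not independent. Shared member peaks had a median fold of 5.63 and single ones 3.81 in replicate 1, with 5.02 and 4.02 in replicate 2. Replicate 1 alone had 151 member peaks, 36 of them at Slc7a2, 32 at Chil3 and 20 at Perp. Replicate 2 alone had 17, with none at Ear1 or Krt79. The highest single peaks were at Car4, 27755 bp downstream of the TSS with a fold of 7.61 over 1459 bp in replicate 1, and at Itgax, at 2708 bp with 7.36. Read depth was not analysed here, and its share in the difference in number was not tested.

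**Figure D3:**
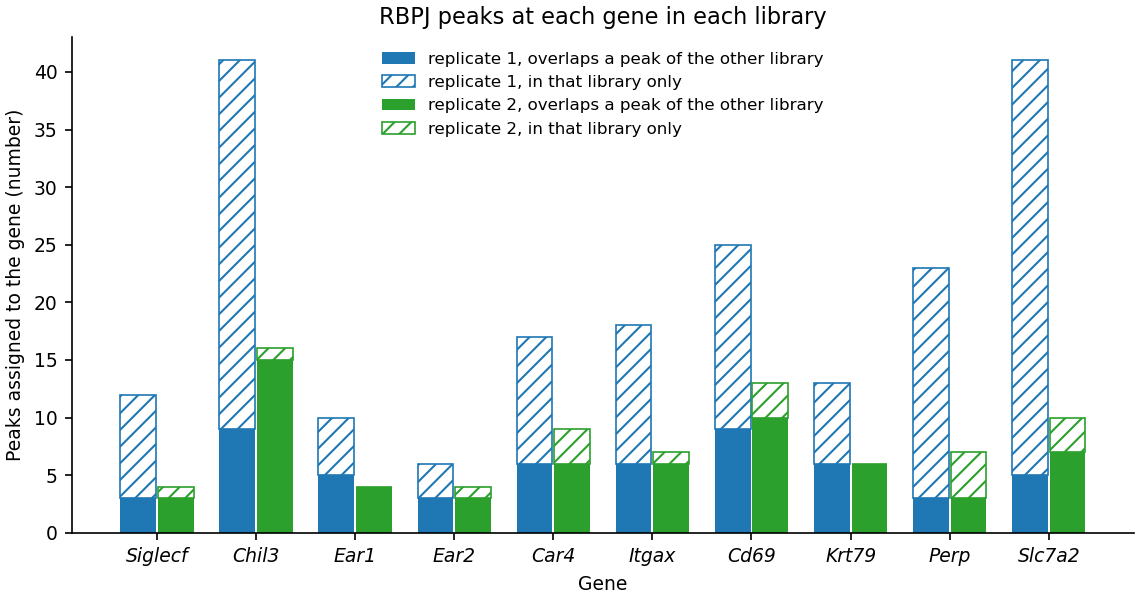
Number of peaks assigned to each gene in replicate 1 (blue, left) and replicate 2 (green, right), with filled bars for peaks that overlap a peak of the other library and hatched bars for peaks of 1 library. Replicate 1 has 41 peaks each at Chil3 and Slc7a2, of which 9 and 5 are shared, and nearly all replicate 2 peaks at Chil3 (15 of 16) are shared.

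The threshold of the peak lists touched the weaker sites. The lower −log10 q of the 2 libraries was under 5 at 21 of 48 member regions. It was under 5 in replicate 2 at 20 regions and in replicate 1 at 7, some of them the same. Shares over all consensus regions were not computed for these counts, so they describe the members alone. Regions past 5 in both libraries numbered 27. Each of the 10 genes still had at least 1 region, against 33.7% of all protein-coding genes under this setting. At that threshold Cd69 and Slc7a2 no longer had a region within 1 kb of a TSS, so 7 of 10 genes did, against 24.0% of all protein-coding genes under the same setting. Where the summits of both libraries had to lie within 100 bp of each other, 4 of 10 genes (Siglecf, Chil3, Ear1 and Slc7a2) had such a region, against 22.6% of all protein-coding genes.

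Motif shares at the 48 member regions were close to those of all 25454 consensus regions for most motifs. TGGGAA lay in 22.9% of member windows (13.3 to 36.5, Wilson 95%) and in 18.8% of all windows of the same 201 bp. GTGGGAA, which contains it, lay in 8.33% and 4.64%. GAGGAA lay in 25.0% of member windows and 29.3% of all windows, and its longer form AGAGGAAG in 8.33% and 7.5%. TTGCNNAA lay in 20.8% and 14.3%, AGGTCA in 16.7% and 13.3%, and TTCNNNGAA in 12.5% and 7.38%. Lower in member windows were TGANTCA with 6.25% against 9.3%, the RUNX letters TGTGGT with 10.4% against 18.5%, and the E-box CACGTG of BHLHE40 and BHLHE41, in 0 of 48 member windows (interval up to 7.41%) against 4.88%. The interval of each of the 10 member shares included the share over all windows. These intervals cover counting error over regions, regions of a locus are not independent, and no test was run. The median GC content was 43.5% in member windows and 46.8% in all windows, and the part of base composition in these shares was not tested.

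**Figure D4:**
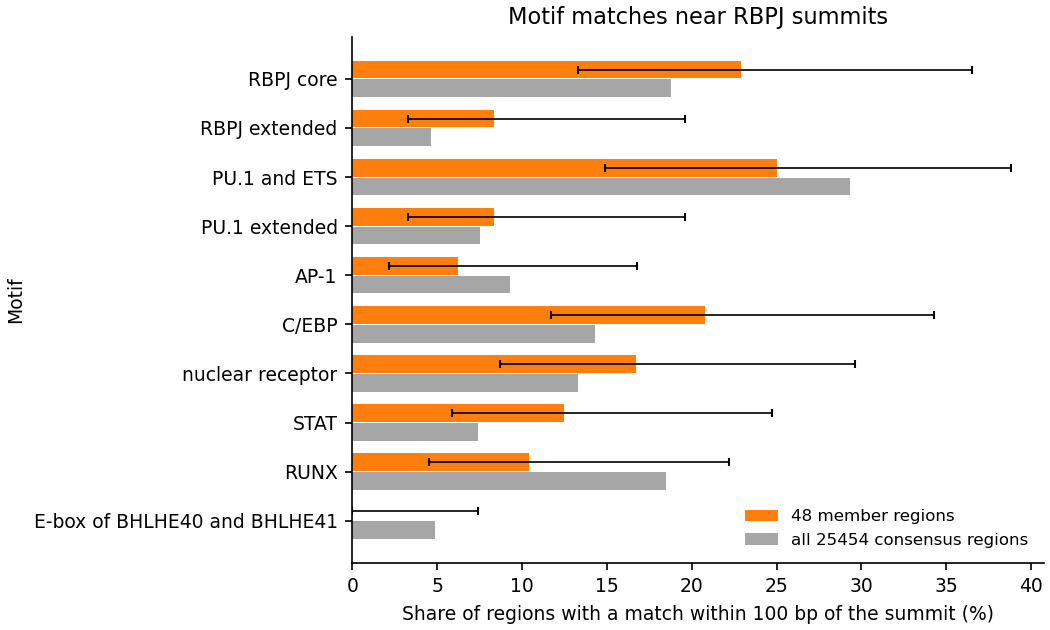
Share of regions in percent with a match within 100 bp of the summit, for 10 motifs, in the 48 member regions (orange, with Wilson 95% intervals) and in all 25454 consensus regions (grey). RBPJ core matches lie in 22.9% of member regions and 18.8% of all, and each orange interval spans the grey bar's end.

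Related genes and other markers give the setting. Over all protein-coding genes, 33.7% had a region within 1 kb of a TSS and 45.0% had one by the full rule. Of 20 other AM genes, 16 had a region within 1 kb of a TSS and all 20 had a region, among them Pparg with 17 and Cd9 with 35. All 6 pan-macrophage genes (Csf1r, Adgre1, Cd68, Mertk, Fcgr1 and Lyz2) had one within 1 kb of a TSS. In the lists of other cells, S100a8 was the only gene with a region within 1 kb of a TSS, of 5 neutrophil, 5 eosinophil, 6 lymphocyte, 5 alveolar type II and 5 endothelial genes. By the full rule, 2 of the 5 eosinophil, 1 of the 5 neutrophil, 3 of the 6 lymphocyte, 0 of the 5 alveolar type II and 2 of the 5 endothelial genes had a region, among them Vwf with 12 and Ccr3 with 6, which were chosen after their values were seen. A peak list does not measure the purity of the cells. Relatives of the members varied in number of regions: Chil4, Chil5 and Chil6 had none, while Chia1 had 3. Chil4 and Chia1 are the protein-coding genes on either side of Chil3. Among keratins, Krt8, Krt18, Krt4 and Krt5 had none, while Krt78 had 8. Krt4 and Krt78 are both direct neighbours of Krt79. Cd33, a lectin related to Siglecf, had 5 regions with the strongest at 16.22 and 11.05, and Itgam and Itgal, related to Itgax, had 4 and 3. Slc7a11, the cystine transporter, had 9 regions, with the strongest at 16.75 and 8.37.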

How the data were processed

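RBPJ and input libraries of sorted WT AMs were replicates 1 and 2, as labelled. Per the submitters' processing notes and the study's methods, reads were demultiplexed (bcl2fastq 2.20.0.422, CASAVA), trimmed with cutadapt and aligned to mm10 with Bowtie2. Alignments were filtered with SAMtools, in part by alignment quality, and given to MACS3, which called peaks in each library against input at q 0.05. The deposited lists hold the fold enrichment (a ratio to background), the −log10 p and −log10 q and a display score of each peak, as the authors' caller wrote them, with the summit's offset. Fold and −log10 q were used, and the score and p were not. All peaks lay within GRCm38 chromosome lengths, so sequence (RefSeq) and basic GENCODE gene models of GRCm38 were used. Coordinates count from 1.

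Peaks were shared at an overlap of 1 bp, and merged regions with a peak of each library formed the consensus. Sequences recurring in the genome were counted by exact windows of 50 and 100 bases on both strands. All 10 members are named with every site. Other genes are named where they share a region with a member, are listed relatives, or are listed genes with a region near a TSS. The members and lists were chosen with earlier results of these data known, so no test was run on them. Counts stand beside those over all genes or regions where these were computed. Alternatives were promoter windows, thresholds, overlap rules, transcript sets and motif windows. Python 3.11.15, numpy 2.4.6, pandas 2.3.3, SciPy 1.17.1, pysam 0.24.0 and matplotlib 3.10.9 were used, and the procedures were tested on simulated lists. Read depth was not analysed here, so precision is limited by the 2 libraries and intervals cover counting error only.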

Additional observations from a re-analysis of the deposited data

How the results depend on the processing

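The 10 members kept at least 1 region under every alternative run, while 33.7% to 62.9% of all protein-coding genes had one, and the count with a region within 1 kb of a TSS lay between 6 and 10, except at 4 with summits within 100 bp, beside 22.6% to 46.1% of all protein-coding genes. It was 10, Krt79 included, with a promoter window of 3 kb or with comprehensive transcripts and 6 with a window of 250 bp. It was 9 with replicate 1 alone (46.1% of all genes) and 9 with replicate 2 alone (37.5%). The 48 regions became 27 at a −log10 q of at least 5, 27 with summits within 100 bp and 26 when assigned by gene body or 1 kb of a TSS only, and numbered 80 to 206 when a single list stood for the consensus. Member peaks of replicate 1 overlapped the other library in 13.1% with summits within 100 bp and in 47.1% when that list was shortened to the length of replicate 2, and those of replicate 2 in 89.5% at a −log10 q of at least 5, in 33.8% with summits within 100 bp and in 63.8% with the shortened list. Over all peaks the same changes gave 13.6% and 46.7% in replicate 1, and 84.0%, 30.6% and 56.3% in replicate 2. The median fold of the strongest regions was 8.31 to 14.2 with a library left out and 6.17 with summits within 100 bp. No such median over all genes was computed under these settings. The regions with TGGGAA numbered 5 within 50 bp of the summit and 20 within 200 bp, and 21 of 80 to 36 of 206 peaks with a library left out. The shares over all regions or peaks were not computed for these settings, so these counts describe the members alone. In all, 34 of 50 alternatives gave counts within 1.5 times those reported, shares within their Wilson interval or a median fold within 2.19, the SD between the libraries. These include 32 regions with the nearest TSS within 20 kb only. An alternative chosen after seeing the data kept only regions in which at least 90% of 100-base windows occur once. It left 45 regions and 8 genes with a region within 1 kb of a TSS, without Ear2, and a median fold of the strongest regions of 7.72. This alternative was applied to member regions only, so no value over all genes stands beside these. No paired analysis was possible because the inputs that share replicate numbers with the RBPJ libraries have no list of their own and no result comes from a test between groups. The number of libraries and the recurring values of fold, mainly in replicate 2, limit what can be ranked.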
